A study of Mus musculus with 2 samples.

Results

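Integrins are the receptors through which cells hold on to the matrix around them, and focal adhesion proteins tie the inner ends of those receptors to the actin skeleton. The members were taken by gene symbol alone: every probe set with exactly 1 symbol that names an integrin alpha or beta chain, plus probe sets of a fixed list of adhesion proteins. This gave 83 probe sets of 45101 on the array, for 35 genes, of which 25 were integrin chains and 10 were focal adhesion proteins. Ptk2 and Fermt1 are not analysed here.

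The study profiled MOS-J, a mouse osteosarcoma cell line, in 2 groups of 1 array each. The DKK1 group carried human DKK1, a secreted inhibitor of canonical Wnt signals, and the control group a control vector, and the labels call both vectors lentiviral. The treatment text also describes a plasmid route with drug selection and a later fluorescent label with sorting, and the labels do not say which route was used for the cells on the arrays, or whether they were 1 clone. Every value below therefore compares 1 array with 1 array, with no replicate error, no test and no p-value.

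An integrin is a pair of 1 alpha and 1 beta chain, and the alpha chain mostly sets which matrix protein is bound. Talin and kindlin bind the tail of the beta chain and switch the receptor on, vinculin strengthens the link to actin, and a complex of ILK, PINCH and parvin joins the same site. Bone-forming cells and the tumours that derive from them attach to collagen, fibronectin and laminin mainly through receptors with the beta-1 and the alpha-v chains. In these bulk samples fewer cells carrying a transcript and less of it per cell cannot be told apart.

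A MAS5 signal is the brightness of a probe set on a linear scale. Probe sets were kept as measured when their mean over both arrays was 71.3 or more, which is the median of such means on the whole array. Of the 83 member probe sets 45 were measured, covering 24 of the 35 genes. A difference is the log2 of the signal plus 16.6 in DKK1 cells minus the same in control cells, taken as the mean over a gene's measured probe sets, and it understates the change of dim genes. A gene was called higher or lower at 2-fold, with all its measured probe sets of that sign.

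Of the 24 measured members, 8 were higher and 2 were lower in DKK1 cells, while 14 were not called. Over all 11058 measured genes 11.7% were called higher and 6.91% lower, 18.6% in either direction. The 10 called members are 41.7% of those measured. By single probe sets, 14 of the 45 passed 2-fold upwards and 3 passed it downwards, against 12.1% and 7.51% of all measured probe sets with 1 symbol. The median difference of the members was 0.56 (range -3.04 to 1.82), and that of all measured genes was 0.10. Agreement between probe sets was the only spread available, with a pooled SD of 0.45 on the log2 scale over the 4978 genes with at least 2 measured probe sets, and it says nothing of the spread between cultures.

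How the 2 arrays are scaled moves all these differences together. Hybridisation controls, added after labelling, had a median log2 ratio of -0.37 (18 probe sets), while poly-A controls, added before labelling, had a median of 0.64 (20 probe sets above the filter). The 3' to 5' signal ratio of Actb was 1.25 on the DKK1 array and 1.61 on the control array, and that of Gapdh was 0.759 on the DKK1 array and 0.823 on the control array. Scaled on the hybridisation controls the median of all genes was 0.45, and with the poly-A controls in their place it was -0.50. The member median was 0.91 on the first scaling and -0.05 on the second, so its sign changes, and it stood 0.46 and 0.45 above the median of all genes. On the hybridisation scaling 10 of the 24 measured members were higher and 1 was lower, against 21.6% and 3.62% of all genes. On the poly-A scaling 1 was higher and 2 were lower, against 4.60% and 23.1% of all genes. The 1 higher member there is near the share of all genes. Of all called genes 62.9% were higher as deposited, 85.6% on the hybridisation scaling and 16.6% on the poly-A scaling. Gaps between the differences of 2 members are given below with their range over 5 scalings. A scaling moves both members of a gap nearly alike by construction, so a narrow range is no sign of a robust gap. Settings that change which probe sets are used are not part of these ranges.

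**Figure D1:**
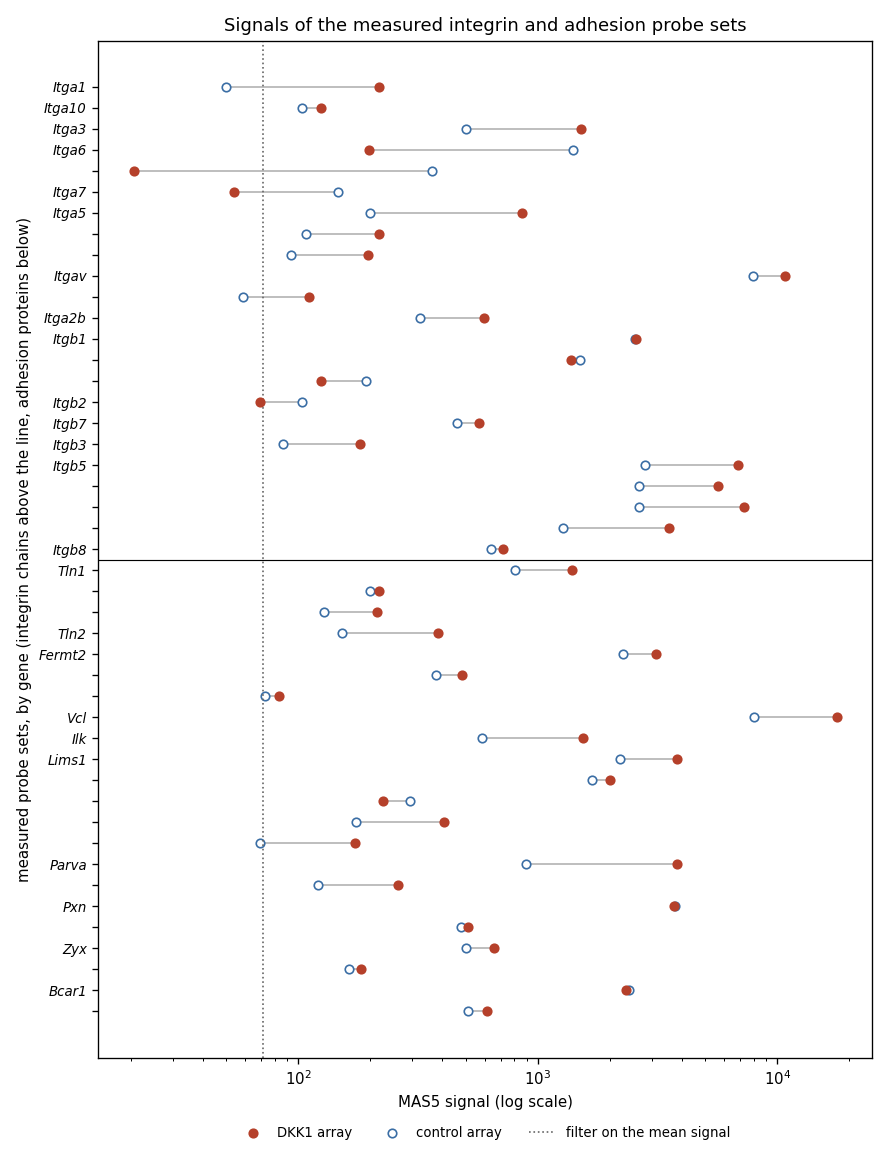
MAS5 signals (log axis) of the 45 measured probe sets of integrin chains (above the line) and focal adhesion proteins (below it), with a filled point for the DKK1 array, an open point for the control array and a dotted line at the filter of 71.3. The 2 probe sets of Itga6 show the widest gaps, with the DKK1 point on the left, while those of Itgb5 lie to the right of their control points and those of Itgb1 and Pxn nearly coincide for the bright probe sets.

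Laminin-binding alpha chains went both ways, and all 3 were called. Itga6 encodes the alpha-6 chain, which pairs with beta-1 or beta-4 to bind laminins. Its 2 probe sets gave signals of 197 and 20.6 in DKK1 cells, against 1407 and 363 in control cells. Both were far lower in DKK1 cells, by 7.14-fold for the first and by at least 5.09-fold for the second, whose DKK1 signal was raised to the filter. The gene's difference was -3.04 with an SD of 0.43 between the 2 probe sets, at percentile 0.425 of all measured genes. It kept its call under all 15 alternative settings, with values from -3.49 to -2.39.

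Itga7 encodes the alpha-7 chain, a laminin receptor best known from muscle. Its 1 probe set had a signal of 53.8 in DKK1 cells and 147 in control cells, a difference of -1.21 and at least 2.06-fold lower. That call ended with the larger pseudocount (-0.83) and the scaling on hybridisation controls (-0.92), and the stricter filter left no measured probe set.

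Itga3 encodes the alpha-3 chain, which pairs with beta-1 and binds laminins of epithelial basement membranes. Its measured probe set had a signal of 1516 in DKK1 cells and 502 in control cells, a difference of 1.56. The 2 other probe sets of this gene were below the filter and disagreed, with signals of 78.0 and 21.7 in DKK1 cells against 21.3 and 37.4 in control cells. With these included the difference was 0.79 and the call ended, as it did on the scaling on poly-A controls (0.93). The difference of Itga6 minus that of Itga3 was -4.61, and it ranged from -4.76 to -4.42 over 5 scalings.

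Among collagen-binding alpha chains, 1 of 2 measured was called. Itga1, the alpha-1 chain, which favours collagen of basement membranes, had a signal of 219 in DKK1 cells and 49.9 in control cells. It was at least 3.07-fold higher, with a difference of 1.82, the highest of the members, and kept its call in all 14 settings in which it was measured, all but the stricter filter. A dim second probe set had 61.5 in DKK1 cells and 3.87 in control cells. Itga10, a collagen receptor chain of cartilage, had 124 in DKK1 cells and 104 in control cells (0.23) and was not called. Itga2, the alpha-2 collagen receptor chain, stayed below the filter with 35.7 in DKK1 cells and 8.38 in control cells.

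RGD-binding alpha chains recognise the short motif that fibronectin, vitronectin and osteopontin share. Itga5, the alpha-5 chain of the main fibronectin receptor, had 3 measured probe sets with signals of 860.2, 218 and 195 in DKK1 cells, against 199.6, 108 and 93.0 in control cells. All 3 were higher, with differences of 2.02, 0.91 and 0.95, and the gene's difference was 1.29 with an SD of 0.63 between them. Another, dim probe set went the other way, with 25.4 in DKK1 cells and 54.4 in control cells. The call ended without the filter, with the median over probe sets (0.95) and with the scaling on poly-A controls (0.70).

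Itgav, the alpha-v chain that pairs with several beta chains, was bright on both arrays. Its brightest probe set had 10790.2 in DKK1 cells and 7931 in control cells, and the other measured one 110.5 in DKK1 cells and 58.9 in control cells. The gene's difference was 0.60 (SD 0.22) and it was not called. Itga2b, the alpha chain of the platelet fibrinogen receptor, had 598 in DKK1 cells and 322 in control cells (0.86), not called. Of the megakaryocyte and platelet markers, 3 of 4 on the array were measured. Their summed signal was 1131 in DKK1 cells and 479 in control cells, Ppbp (1.88) and Pf4 (1.05) were called higher, and Gp9 was dim, with 5.25 in DKK1 cells and 59.8 in control cells. Their part in the Itga2b value was not tested. Itga8, the alpha-8 chain, was not measured, with no signal above 51.1.

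Of the beta chains 1 was called. Itgb1, the partner of most alpha chains above, had 3 measured probe sets with signals of 2577, 1379 and 125 in DKK1 cells, against 2552, 1499 and 193 in control cells. The 2 bright ones differed by 0.01 and -0.12, and the gene's difference was -0.22 (SD 0.30), not called under any of the 15 settings. That difference was 0.13 when scaled on the hybridisation controls and -0.83 on the poly-A controls. Relative to Itgb1, the partner these alpha chains share, the difference was 1.79 for Itga3, 1.52 for Itga5 and -2.82 for Itga6. Over 5 scalings these gaps ranged from 1.76 to 1.81, from 1.35 to 1.53 and from -2.95 to -2.66. Without the filter the differences were 0.79 for Itga3, 0.78 for Itga5 and -0.10 for Itgb1. The gaps of Itga3 and Itga5 to Itgb1 were thus smaller there than under any of the scalings.

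Itgb5 encodes the beta-5 chain, which forms the vitronectin receptor alpha-v beta-5. Its 4 probe sets gave 6881, 3536, 7231 and 5643 in DKK1 cells, against 2803, 1277, 2647 and 2648 in control cells. All 4 were at least 2-fold higher in DKK1 cells (1.09 to 1.46), and the gene's difference was 1.32 with an SD of 0.17, the best agreement among called members with several probe sets. Of these, 2 carry the suffix _x, which marks probes that can match other transcripts, and 1 the suffix _a. The difference was 1.54 above that of Itgb1 (1.51 to 1.70 over 5 scalings) and 0.72 above that of Itgav (0.67 to 0.87). Its call ended when scaled on the poly-A controls (0.68).

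Other partners of alpha-v were not called. Itgb3, the beta-3 chain of the osteoclast and platelet receptors, had 181 in DKK1 cells and 86.3 in control cells (0.94), just under the 2-fold line, and passed it under 4 of 14 alternative settings. Itgb8, which takes part in releasing active TGF-beta, had 718 in DKK1 cells and 639 in control cells (0.17). Itgb6, an epithelial chain, and Itgb4, the partner of alpha-6 in epithelial cells, were not measured. No signal of Itgb6 was above 44.7. The signals of Itgb4 were 12.4 in DKK1 cells and 8.26 in control cells. Of 8 epithelial markers 3 were measured and 0 called. Epcam had 264 in DKK1 cells and 226 in control cells at its brightest probe set (0.21). Krt8 differed by 0.82 over 2 measured probe sets and Krt5 by 0.59. Cdh1 was not measured, with 22.6 in DKK1 cells and 13.3 in control cells.

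Chains of white blood cells were mostly below the filter. Itgal, Itgam, Itgax, Itgae and Itgb2l had no measured probe set, with no signal above 68.0 on either array. Itgb2, the beta-2 chain that pairs with alpha-L, alpha-M and alpha-X, had 69.1 in DKK1 cells and 104 in control cells (-0.49). Itgb7, a lymphocyte chain, had 569 in DKK1 cells and 461 in control cells (0.29). Neither was called. Of 13 leukocyte markers on the array 7 were measured. The summed signal of all 13 was 1854 in DKK1 cells and 1464 in control cells. Ptprc, the defining marker of white blood cells, was dim, with 4.24 in DKK1 cells and 11.7 in control cells. The brightest was Cd14, with 521 in DKK1 cells and 370 in control cells (0.47), not called. Also measured and not called were Csf1r (0.45), Cd68 (0.48), Spi1 (0.60) and Cd53 (-0.99). Lyz2 was called higher (2.29), with 136 in DKK1 cells and 14.5 in control cells. Laptm5 was called lower (-1.10), with 44.2 in DKK1 cells and 113 in control cells at the 1 measured of its 5 probe sets. Both calls rest on a signal below the filter on 1 of the arrays. The alpha-4 and alpha-9 chains, Itga4 and Itga9, receptors for VCAM1 and tenascin, stayed dim in all their 5 and 3 probe sets, with signals of at most 64.1.

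**Figure D2:**
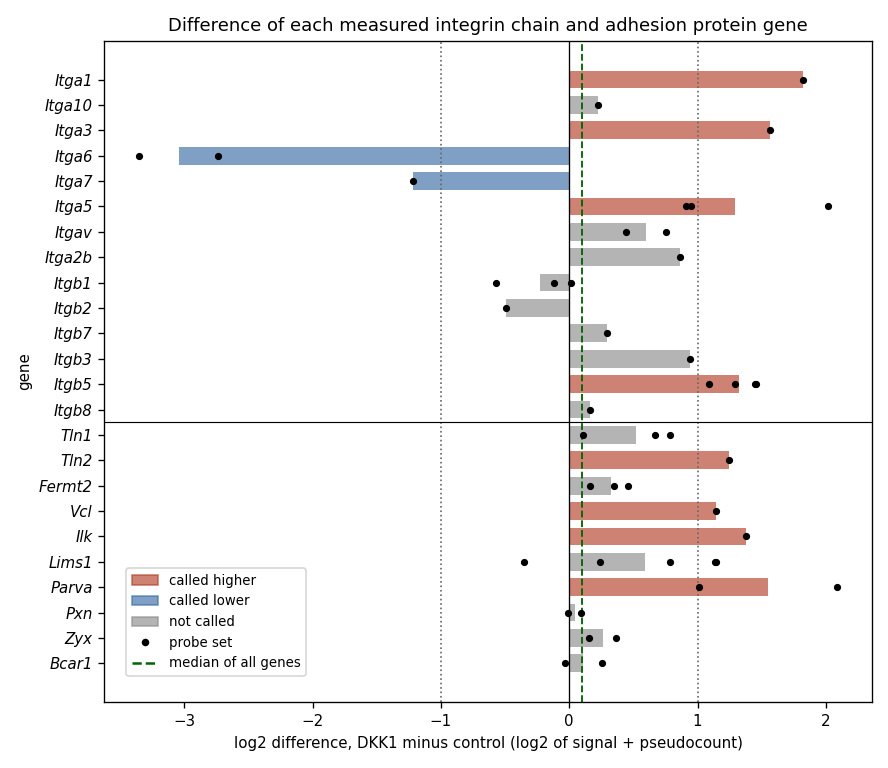
Log2 difference, DKK1 minus control, of the 24 measured genes (bars, coloured by call) with each measured probe set as a point, dotted lines at 2-fold and a dashed line at the median of all genes (0.10). Itga6 reaches -3.04 while Itga1, Itga3, Itga5 and Itgb5 pass 2-fold in the other direction, and below the line all 10 bars point right, with 4 past 2-fold.

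All 10 focal adhesion proteins were measured, and 4 were called higher and 0 lower. Their median difference was 0.56 (range 0.04 to 1.55). All 10 lay above 0 as deposited and with quantile, loess or hybridisation scaling, 7 with median centring and 4 on the poly-A scaling. As deposited 6185 of all 11058 measured genes lay above 0. The median of all genes was 0.45 on the hybridisation scaling, -0.16 with median centring and -0.50 on the poly-A scaling, so these counts shift with all genes.

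The ILK-PINCH-parvin complex held 2 of these calls. Parva, alpha-parvin, which links the complex to actin, had 2 probe sets with signals of 3832 and 261 in DKK1 cells, against 889.6 and 121 in control cells. Both were higher, by 2.09 and 1.01, for a gene difference of 1.55 (SD 0.76), the highest among the adhesion proteins. That rank rests on the first, which carries the suffix _s for shared sequence. The second has no suffix and lies near the 2-fold line. Ilk, the pseudokinase at the centre of the complex, had 1548 in DKK1 cells and 586 in control cells, a difference of 1.38 from 1 probe set. The calls of both ended when scaled on the poly-A controls, at 0.94 for Parva and 0.75 for Ilk. Lims1, which encodes PINCH, was not called: its 5 measured probe sets ran from -0.35 to 1.15, with a gene difference of 0.59 (SD 0.64). The brightest of them had 3817 in DKK1 cells and 2203 in control cells.

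Of the 4 activators and actin linkers 2 were called higher and 2 were not called. Tln2, the talin more common in muscle and brain, had 385 in DKK1 cells and 153 in control cells (1.25) and was called. Tln1, the talin of most tissues, had a brightest probe set of 1389.8 in DKK1 cells and 800.2 in control cells, with a gene difference of 0.52 (SD 0.36, 3 probe sets), not called. The difference of Tln2 was 0.72 above that of Tln1 (0.68 to 0.73 over 5 scalings). Fermt2, kindlin-2, had 3126 in DKK1 cells and 2266 in control cells at its brightest probe set and a gene difference of 0.32 (SD 0.15), not called.

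Vcl encodes vinculin, which binds stretched talin and actin. Its bright probe set had 17695 in DKK1 cells and 7992 in control cells, a difference of 1.15, while the other probe set was dim, with 30.5 in DKK1 cells and 25.7 in control cells. The call of Vcl ended without the filter (0.65), with median centring (0.88) and with the scaling on poly-A controls (0.51). That of Tln2 ended with the last 2 as well (0.98 and 0.64), and with the stricter filter it was not measured.

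Scaffold proteins were nearly level as deposited. Pxn, paxillin, had 3703 and 512 in DKK1 cells, against 3732 and 478 in control cells (0.04). Bcar1, the docking protein p130Cas, had 2342 and 615 in DKK1 cells, against 2396 and 513 in control cells (0.11). Zyx, zyxin, a sensor of tension on actin fibres, had 654 and 182 in DKK1 cells, against 503 and 162 in control cells (0.26). On the poly-A scaling Pxn, Bcar1 and Zyx were at -0.58, -0.52 and -0.34, and on the hybridisation scaling at 0.41, 0.48 and 0.62. None of the 3 was called under any of the settings. Relative to Pxn, Ilk differed by 1.33 (1.31 to 1.34 over 5 scalings) and Parva by 1.51 (1.41 to 1.52).

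**Figure D3:**
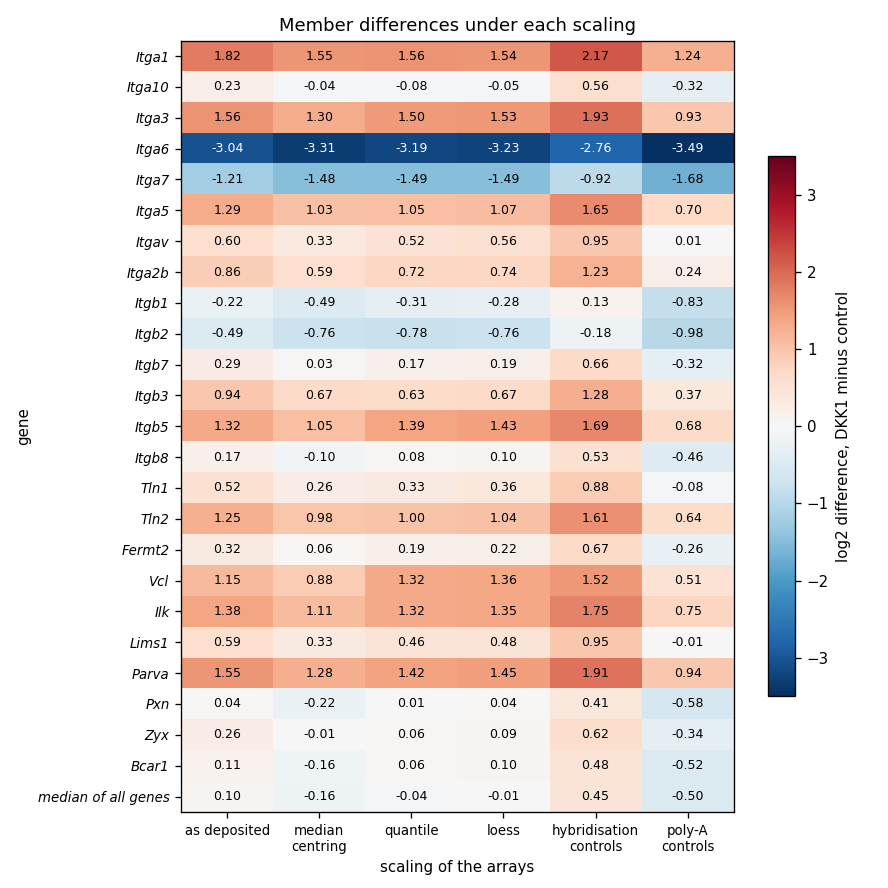
Log2 difference, DKK1 minus control, of each measured gene (rows) under 6 scalings of the arrays (columns), with the median of all genes in the last row. Most values of a column shift together, from 0.45 for the median of all genes with the hybridisation controls to -0.50 with the poly-A controls, and Itga6 stays at or below -2.76 throughout.

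Upstream windows of the members were read from RefSeq (GRCm38.p6), from 250 bases before to 50 bases after each transcript start. Of the 35 members 25 had an entry, with 31 windows, and these had a median GC content of 59.0% against 52.7% over all 32851 windows. Motifs were searched on both strands. The CArG box, the binding motif of serum response factor, a regulator of actin and adhesion genes, was in 3 member windows (9.68%) and in 1.63% of all windows. The TEAD motif GGAATG was in 3 member windows (9.68%, against 14.7% of all), the AP-1 motif TGANTCA in 4 (12.9%, against 7.81%) and the SP1 motif GGGCGG in 16 (51.6%, against 35.7%). No CArG box overlapped a match of the other motifs. A match is a string of letters, not a shown binding site.

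The 3 windows with a CArG box, in capitals, are shown because their genes behaved differently: Vcl was called higher, Fermt2 was not called and Itgb6 was not measured. They are chr14:20929148-20929447 on the plus strand for Vcl, chr14:45530016-45530315 on the minus strand for Fermt2 and chr2:60673644-60673943 on the minus strand for the second of 2 windows of Itgb6. The boxes start 227, 204 and 50 bases before the transcript start. The same 10 letters stand in the Vcl and Itgb6 windows.
Vcl: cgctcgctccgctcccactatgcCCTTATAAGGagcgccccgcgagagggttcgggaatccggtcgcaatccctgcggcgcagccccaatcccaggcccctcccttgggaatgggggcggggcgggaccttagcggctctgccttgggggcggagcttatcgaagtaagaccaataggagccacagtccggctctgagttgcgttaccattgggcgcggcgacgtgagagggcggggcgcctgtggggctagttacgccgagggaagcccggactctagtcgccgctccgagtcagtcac
Fermt2: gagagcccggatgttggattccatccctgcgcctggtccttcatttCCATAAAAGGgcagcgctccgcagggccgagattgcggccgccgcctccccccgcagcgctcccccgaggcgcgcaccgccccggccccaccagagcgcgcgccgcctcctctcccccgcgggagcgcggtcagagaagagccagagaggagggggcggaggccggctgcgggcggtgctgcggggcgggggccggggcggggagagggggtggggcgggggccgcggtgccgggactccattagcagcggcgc
Itgb6: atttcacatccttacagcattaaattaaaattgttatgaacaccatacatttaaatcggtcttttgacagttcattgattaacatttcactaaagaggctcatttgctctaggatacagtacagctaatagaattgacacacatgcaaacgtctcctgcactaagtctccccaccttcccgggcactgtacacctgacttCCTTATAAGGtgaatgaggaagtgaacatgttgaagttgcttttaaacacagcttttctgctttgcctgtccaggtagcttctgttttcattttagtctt

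The windows of the bright beta chains are given for comparison, Itgb5 (called higher) at chr16:33829415-33829714 and Itgb1 (not called) at chr8:128685404-128685703, both on the plus strand, with the SP1 motif in capitals on either strand. The Itgb5 window holds 3 such matches and the Itgb1 window 1. This pair does not stand for the other members. Of the 25 members with a window 14 held the motif, among them 5 of the 6 called higher. Bcar1, Fermt2, Itgav, Lims1 and Zyx, which were not called, held it too.
Itgb5: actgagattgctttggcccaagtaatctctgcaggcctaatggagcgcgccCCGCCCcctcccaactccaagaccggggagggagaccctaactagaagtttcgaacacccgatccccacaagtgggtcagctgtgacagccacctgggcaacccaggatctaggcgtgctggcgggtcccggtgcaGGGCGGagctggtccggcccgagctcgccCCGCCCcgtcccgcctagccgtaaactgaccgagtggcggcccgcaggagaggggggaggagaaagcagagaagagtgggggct
Itgb1: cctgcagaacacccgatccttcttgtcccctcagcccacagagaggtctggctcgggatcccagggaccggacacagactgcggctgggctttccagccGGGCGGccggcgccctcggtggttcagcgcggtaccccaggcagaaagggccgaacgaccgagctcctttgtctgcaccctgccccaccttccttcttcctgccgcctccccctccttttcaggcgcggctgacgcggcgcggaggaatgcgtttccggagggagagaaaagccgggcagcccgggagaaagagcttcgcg

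Genes that work with the members were followed through 5 lists. Of the matrix and cell surface ligands of integrins, 25 were measured. In DKK1 cells 7 of them were higher and 1 was lower, 32.0% called against 18.6% of all genes, and the median difference was 0.43. The highest were Thbs1, thrombospondin-1 (3.71 over 2 probe sets, SD 1.38), Postn, periostin (3.58), and Ccn2, a matricellular protein (2.15). The brightest probe set of Thbs1 had 7389 in DKK1 cells and 272 in control cells. The 1 probe set of Postn had 676 in DKK1 cells and 41.2 in control cells, the latter below the filter. All 3 genes kept their call under all 5 scalings. Of the 25 ligands 10 were higher and 0 lower on the hybridisation scaling, against 21.6% and 3.62% of all genes. On the poly-A scaling 5 were higher and 6 lower, against 4.60% and 23.1%. Edil3, an RGD protein bound by alpha-v receptors, was lower (-1.24), a call that ended with the hybridisation controls (-0.88). Among ligands not called, Fn1, fibronectin, the ligand of alpha-5, had 22368 in DKK1 cells and 24924 in control cells at its brightest probe set, with a gene difference of -0.07 over 2 probe sets. The laminin chains, whose trimers are bound by alpha-3 and alpha-6, went both ways without a call, with -0.66 for Lamb1, -0.47 for Lamc1, -0.19 for Lama4 and 0.86 for Lama5, while Lama1, Lama2 and Lama3 were not measured. Fn1 and the laminin chains were picked for their link to the members above after values were seen.

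Other adaptors and linkers of adhesions had 9 of 33 measured genes higher and 1 lower, 30.3% called against 18.6% of all genes. Their median was 0.85, and 29 of 33 lay above 0, against 6185 of all 11058 measured genes. The higher genes were led by Csrp1, an actin-bundling LIM protein (2.27), Palld, palladin (2.05), and Tns2, a tensin (2.01). Each was called under all 5 scalings. Tes, testin, a binding partner of zyxin, was lower (-1.18), but not with the hybridisation controls (-0.81). The median of this list was 0.23 on the poly-A scaling, the only one of the 5 lists to stay above 0 there. Its calls were 4 higher and 1 lower on that scaling, and 20 higher and 0 lower on the hybridisation scaling.

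Adhesion signalling enzymes and exchange factors had 1 of 35 genes higher and 1 lower as deposited, 5.71% called against 18.6% of all genes, with a median of 0.35. That low share depends on the scaling. On the hybridisation scaling 8 of the 35 were higher and 1 was lower, against 21.6% and 3.62% of all genes. With the poly-A controls 0 were higher and 6 lower, against 4.60% and 23.1%. Asap1, a GTPase-activating protein of adhesion turnover, was higher (1.14), a call that ended with median centring and with the poly-A controls (0.53). Fyn, a kinase of the Src family, was lower (-1.38) under all 5 scalings. Src had 396 in DKK1 cells and 176 in control cells at its brightest probe set, with a gene difference of 0.99 over 2 probe sets, and was not called; it was chosen for its place just under the line.

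Integrin regulators and membrane partners had 3 of 25 higher and 2 lower, with a median of 0.22. Its share of calls was near that of all genes, with 12.0% higher against 11.7% of all genes and 20.0% called in either direction against 18.6%. Dab2, a clathrin adaptor that takes integrins into the cell (1.85), Filip1l (1.54) and Sdc2, the proteoglycan syndecan-2 (1.33), were higher, but on the poly-A scaling Filip1l (0.91) and Sdc2 (0.70) were not. Slc3a2, the heavy chain of CD98, which binds beta-1 tails and also carries amino acid transporters, was lower (-2.13), as was Hax1 (-1.56). Actin stress fibre genes had 7 of 18 higher and 0 lower, 38.9% called against 18.6% of all genes, with a median of 0.62. Among them were Myl9 (3.31), Tagln (3.08) and Acta2 (2.58). The 1 probe set of Tagln had 246.5 in DKK1 cells and 14.5 in control cells, the latter below the filter. On the poly-A scaling the medians were -0.14 for ligands, -0.23 for signalling enzymes, -0.40 for regulators and -0.01 for stress fibre genes, against -0.50 for all genes.

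**Figure D4:**
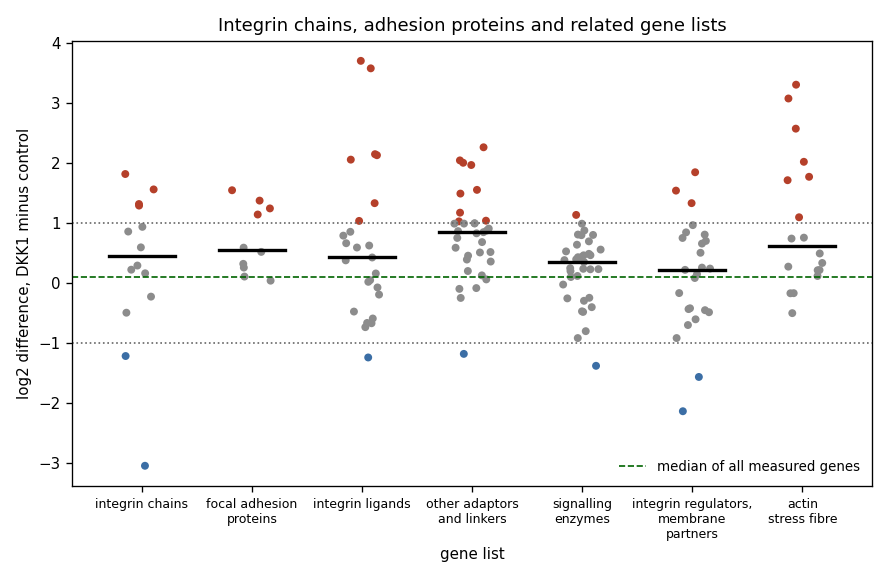
Log2 difference, DKK1 minus control, of each measured gene (points, coloured past 2-fold) in the integrin chains, the focal adhesion proteins and 5 related lists, with a bar at each list's median and a dashed line at the median of all measured genes (0.10). As deposited, signalling enzymes keep nearly all their points within 2-fold, while ligands and stress fibre genes have points above 3.

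The labelled cell type was checked on 10 osteoblast markers, of which 8 were on the array under 1 symbol. The 2 called ones went opposite ways. Omd, osteomodulin, a proteoglycan of mineralising matrix, had 7967 in DKK1 cells and 44.8 in control cells (7.02, higher). Phex, a membrane protein of osteoblasts and osteocytes that acts in phosphate balance, had 1.97 in DKK1 cells and 199.9 in control cells at its measured probe set (-3.54, lower). For Omd the control signal and for Phex the DKK1 signal was below the filter, so the size of each difference is uncertain. Col1a1 (0.79 over 2 probe sets, SD 1.05), Col1a2 (0.05), Alpl (0.27) and Sp7 (0.36) were measured and not called. Alpl and Sp7 had 182 and 117 in DKK1 cells and 147 and 87.0 in control cells, and Ibsp and Dmp1 were not measured. The markers of the labelled cell type were not all alike on the 2 arrays, and the part of that in the members' values was not tested. Of 5 endothelial markers only Kdr was measured (0.68, not called), and Pecam1 had 37.7 in DKK1 cells and 37.5 in control cells. The 2 mouse Dkk1 probe sets had 42.5 and 2.01 in DKK1 cells, against 13.0 and 10.97 in control cells, all below the filter. They need not match the human transgene and so check nothing about the labels.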

How the data were processed

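The data are 2 expression arrays of total RNA, 1 of DKK1 and 1 of control MOS-J cells. RNA was labelled with biotin by 3' in vitro transcription from 500.0 ng, per the labels' protocols. The deposited values are linear intensity values, 1 per probe set, made with MAS5 per the submitters' processing notes. The MAS5 version, its settings and the genome build were not stated in the labels. Trimmed by 2% at each end, the mean signal was 500.0 on both arrays, so each array was scaled on its own, and a shift shared by all genes cannot be seen. No detection calls were used. Precision is limited by having 1 array per group.

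Symbols came from the platform annotation, checked by gene ID against RefSeq (GRCm38.p6). Of 45101 probe sets 64 were controls, 34945 others had 1 symbol, 932 had several and 9160 had none here. A gene ID match was found for 34741 of the probe sets with 1 symbol, and 0 symbols changed. The pseudocount of 16.6 is the 25th percentile of all signals. Differences, calls and percentages were computed over all 22499 measured probe sets (19360 with 1 symbol, 11058 genes), and the members' rows are printed. A fold written as at least N has the dim signal raised to 71.3. The labels give no batch or date, so with 1 array each a batch and the group cannot be told apart.

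Every member is named. From each related list up to 3 called genes in each direction are named, with exceptions marked, and from each marker list the called genes. Other markers are named as measured, defining or bright ones. The members and lists were chosen with earlier results of these data known. In all 15 alternatives (pseudocount, filter, scaling, choice of probe sets, call rule) were run. The gene-call script was tested on simulated data for coding errors only, which bears on no value here. The planned comparison of protein tails was not run. Scripts used Python 3.11.15, numpy 2.4.6, pandas 2.3.3 and statsmodels 0.14.6 (loess).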

Additional observations from a re-analysis of the deposited data

How the results depend on the processing

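Of 145 values of called members under 15 alternative settings, 130 kept their call and 0 changed sign. Part of this was fixed in advance. The smallest called difference was 1.15 (Vcl) and the largest shift from control probe sets 0.64, so such a shift could change no sign. Members with 1 measured probe set have the same value with the brightest probe set, the median or no sign condition. Of the 10 called members all 10 were kept without a pseudocount, with a smaller one, with dim signals raised to the filter, with quantile normalization, with loess, with the brightest probe set and without the sign condition. With 4 times the pseudocount 1 member was lower (Itga7 lost), as 1 was with the stricter filter, where Itga1, Itga7 and Tln2 were lost because their probe sets were not measured, with the hybridisation controls, and without probe sets of the suffixes _s, _x and _a, where Itga7 and Ilk had none left. Without the filter the median was 0.32 for all members and 0.23 for integrin chains. With median centring the medians were 0.29 for members, 0.18 for integrin chains and 0.29 for focal adhesion proteins, and 2 focal adhesion proteins were higher. With the hybridisation controls the medians were 0.91, 0.80 and 0.91. With the poly-A controls 1 member was higher, the integrin chain Itga1, whose control signal was below the filter, and 0 focal adhesion proteins were higher. The medians reversed to -0.046 for members, -0.16 for integrin chains and -0.046 for focal adhesion proteins. The medians of related lists that reversed there were -0.14 (ligands), -0.23 (signalling enzymes), -0.40 (regulators) and -0.0089 (stress fibre genes), and with median centring that of regulators was -0.044. Over all genes, calls were 1293 higher and 764 lower as deposited (62.9% higher), 39.0% higher with median centring, 51.1% with quantile normalization, 53.3% with loess, 85.6% on the hybridisation scaling and 16.6% on the poly-A scaling. Genes called only under an alternative were Itgb3 with no or a smaller pseudocount, with dim signals raised and with the hybridisation controls, Itga2b with the hybridisation controls, and Itga2 without the filter. Of all genes 7.51% were higher and 11.8% lower with median centring. These shares were 21.6% and 3.62% on the hybridisation scaling, and 4.60% and 23.1% on the poly-A scaling. Each scaling moves all genes by construction, and which one is right was not tested. With 4 times the pseudocount 931 genes were higher, with the stricter filter 711 higher of 7097 genes, and without the filter 1729 higher of 18193. No paired analysis was possible because each group has 1 array.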
